A study of Homo sapiens with 4 samples.

Results

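Interferon response genes are the genes that cells switch on after interferon binds its receptors, and 38 of them were listed by symbol for this description. A gene was represented by the probe set (a group of short probes that report 1 transcript) with the highest mean log2 signal over the 4 arrays, out of all probe sets that the platform annotation gave to that gene alone. This found 37 of the 38 genes, with 59 probe sets, among 19775 genes on the array, and the remaining listed gene was not analysed here. The list goes by symbol and uses no threshold on the values, though it was drawn up with earlier results of these data known.

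RNA came from 2 established human lung tumour lines from ATCC: A549, derived from an adenocarcinoma, and NCI-H358, derived from a bronchioloalveolar carcinoma. Both were stably transduced and selected with antibiotic, and carried either the vector alone (empty vector) or CHST11, which encodes a Golgi sulfotransferase that acts on chondroitin chains. Each pairing of line and vector was a group with 1 Affymetrix array, which makes 4 groups. Every group thus carried a vector and had passed selection, and the labels name no interferon treatment. The labels do not say whether a transduced line was a pool of cells or a clone.

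Type I interferons act through the IFNAR1 and IFNAR2 receptor, type III interferons through IFNLR1 and IL10RB, and both signal through JAK1 and TYK2 to a complex of STAT proteins with IRF9. This complex binds the interferon-stimulated response element (ISRE) upstream of its target genes. The products block viral entry, sense foreign RNA, degrade or stall it, attach the ubiquitin-like protein ISG15 to other proteins, and load antigen for display. Epithelial cells of the lung make these proteins during infection, and tumour cell lines are known to differ in how much of them they make with no added interferon.

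The arrays were close in scale, with median deposited signals from 15.9 to 16.3 and 75th percentiles from 85.2 to 88.2, and the correlation of log2 signals over probe sets was 0.9961 within A549, 0.996 within NCI-H358 and at most 0.9389 across lines. The ratio of 3′ to 5′ signal, a measure of RNA integrity, ran from 2.14 to 2.64 for GAPDH and from 2.06 to 2.4 for ACTB, and the A549 empty vector array had the highest value of both. Signals below 27 on both arrays of a line were treated as not measured there. CHST11 itself had signals of 129 and 344 in A549 and of 220 and 1058 in NCI-H358, empty vector first, by its representing probe set, in the direction the labels give, while its other 2 measured probe sets had log2 vector ratios of 0.11 and -0.16 in A549 and of -0.05 and 0.14 in NCI-H358. Of the 6 epithelial markers all were measured in both lines, CDKN2A, a gene that A549 is known to have lost, had signals of 18.4 and 23.9 in A549 and of 668 and 804 in NCI-H358, and MTAP, its neighbour, gave 4 measured probe sets that disagreed, from log2 -1.14 to 2.83 between lines. Of 16 markers of other cell types analysed, 10 were under 27 on all 4 arrays, among them PTPRC, CLEC4C, CDH5 and PDGFRB, and 6 were above it on at least 1 array: CD3E, CD14, CORO1A, TCF4, PECAM1 and COL1A1.

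The promoters are shown first because the known control element of this gene family can be read in them. Of the 37 genes, 31 had a promoter in the RefSeq table (GRCh38.p14), and in the 250 bases before the start site 19 of these 31 (61.3%) held the core of the response element, GAAA and GAAA with any 2 bases between them on either strand, against 839 of 27305 promoters (3.07%). The core of the gamma-activated site, TTCNNNGAA, which reads the same on both strands, was in 8 of 31 (25.8%) against 6.78% of all promoters. The following stretches of 80 bases are those of the 4 genes with the largest excess in NCI-H358 that had a match and of the gene higher in A549 that had one. Response element cores stand in capitals, and TTTC with TTTC is the same core on the other strand.

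ISG15, chr1:1013355-1013434, plus strand: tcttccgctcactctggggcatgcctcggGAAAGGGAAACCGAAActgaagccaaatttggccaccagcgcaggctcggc
IFI44, chr1:78649709-78649788, plus strand: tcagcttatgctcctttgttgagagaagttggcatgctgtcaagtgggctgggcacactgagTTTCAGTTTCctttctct
BST2, chr19:17405710-17405789, minus strand: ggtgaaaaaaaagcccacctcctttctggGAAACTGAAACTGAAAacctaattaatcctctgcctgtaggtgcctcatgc
GBP1, chr1:89065291-89065370, minus strand: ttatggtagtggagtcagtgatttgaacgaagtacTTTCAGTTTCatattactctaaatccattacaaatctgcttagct
OAS3, chr12:112938394-112938473, plus strand: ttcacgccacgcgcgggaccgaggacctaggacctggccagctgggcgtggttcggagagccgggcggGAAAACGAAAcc

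In ISG15 and BST2 2 cores overlapped. The next 2 stretches, chosen after their values were seen, belong to genes with a core that were not called different between the lines: ISG20 was tested and not called, and CXCL10 was under the filter and not tested.

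ISG20, chr15:88638912-88638991, plus strand: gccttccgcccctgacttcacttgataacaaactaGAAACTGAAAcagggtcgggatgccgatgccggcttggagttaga
CXCL10, chr4:76023668-76023747, minus strand: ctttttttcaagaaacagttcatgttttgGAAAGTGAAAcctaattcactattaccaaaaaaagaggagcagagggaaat

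Among genes higher in NCI-H358, 15 of 24 promoters held a core, among the 2 higher in A549 1 did, and among the 2 not called both did, as did 1 of 3 not tested. A match describes these letters in this window and not a bound site.

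**Figure D1:**
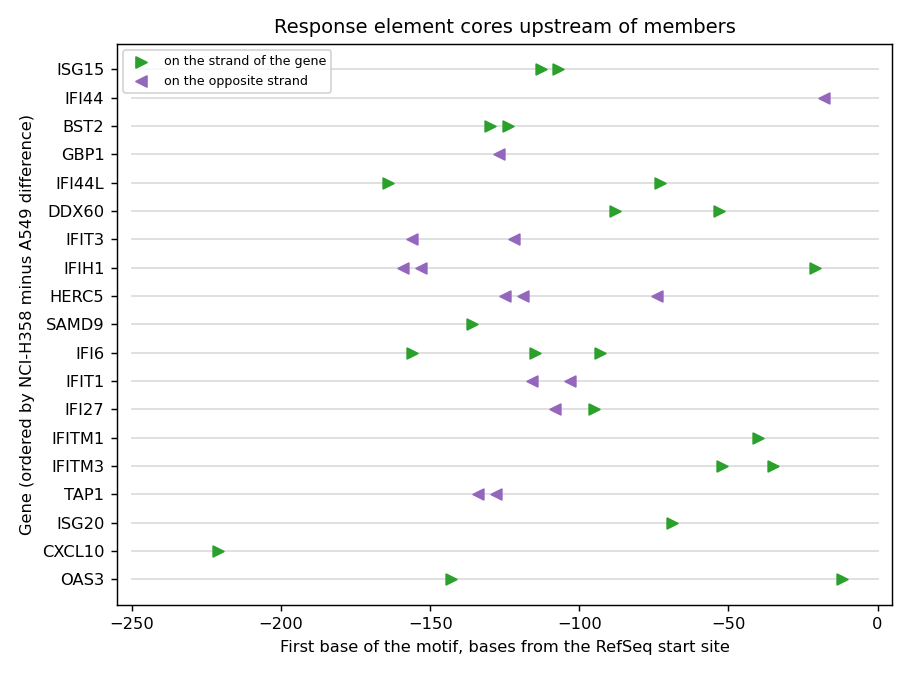
Position of each ISRE core in the 250 bases before the RefSeq start site of the 19 members that hold one, with bases from the start site on the horizontal axis and genes ordered by their NCI-H358 minus A549 difference. Triangles give the strand, and the plotted first bases of the cores lie from 221 to 12 bases before the start.

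The first comparison asked how the 2 cell lines differ, and the interferon response genes were mostly higher in NCI-H358. Of the 37 genes, 28 were higher in NCI-H358 and 2 in A549 by limma at an adjusted p of 0.05, 3 were not called, and 4 were below 27 on all arrays and not tested. Over all 12271 genes tested, 33.9% were called higher in NCI-H358 and 30.6% higher in A549, 64.5% in all, so a call by itself is common between these lines. At a fitted difference of at least 2-fold, 25 members were higher in NCI-H358 and 0 in A549, against 12.4% and 12.0% of all genes. The median log2 difference over the 37 genes was 1.62, against 0.03 over all genes tested. Of the 33 that were tested, 12 passed the filter through NCI-H358 alone and so had to differ, and 21 were measured in both lines. Of these 21, 16 were higher in NCI-H358, 2 in A549 and 3 were not called, against 32.5% and 28.3% of the 10572 genes measured in both lines. The counts and the median over all members include the 12 whose direction the filter fixed. With no filter, where all genes were tested, 14 member calls were lost at limma adjusted p from 0.0603 to 0.199 with the same estimates: GBP1, HERC6, IFI27, IFIH1, IFIT1, IFITM1, IRF7, IRF9, MX1, MX2, OAS1, OAS3, PARP9 and SAMD9.

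The difference was fitted with terms for cell line and vector, so the 2 arrays of a line differ in vector and p-values measure only the spread between these 4 samples, which may be technical. Each fold of a gene under 27 in the dimmer line is a lower bound, computed with the dimmer arrays raised to 27. Log2 differences are on signals floored at 16.1, which understates the change of dim genes. The floor can also remove spread between dim arrays and so lower their p-values. For genes under 27 on both arrays of 1 line the filter fixed the direction, so their adjusted p adds no support. RNA of a whole culture was measured, so fewer cells with a transcript and less of it per cell cannot be told apart.

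**Figure D2:**
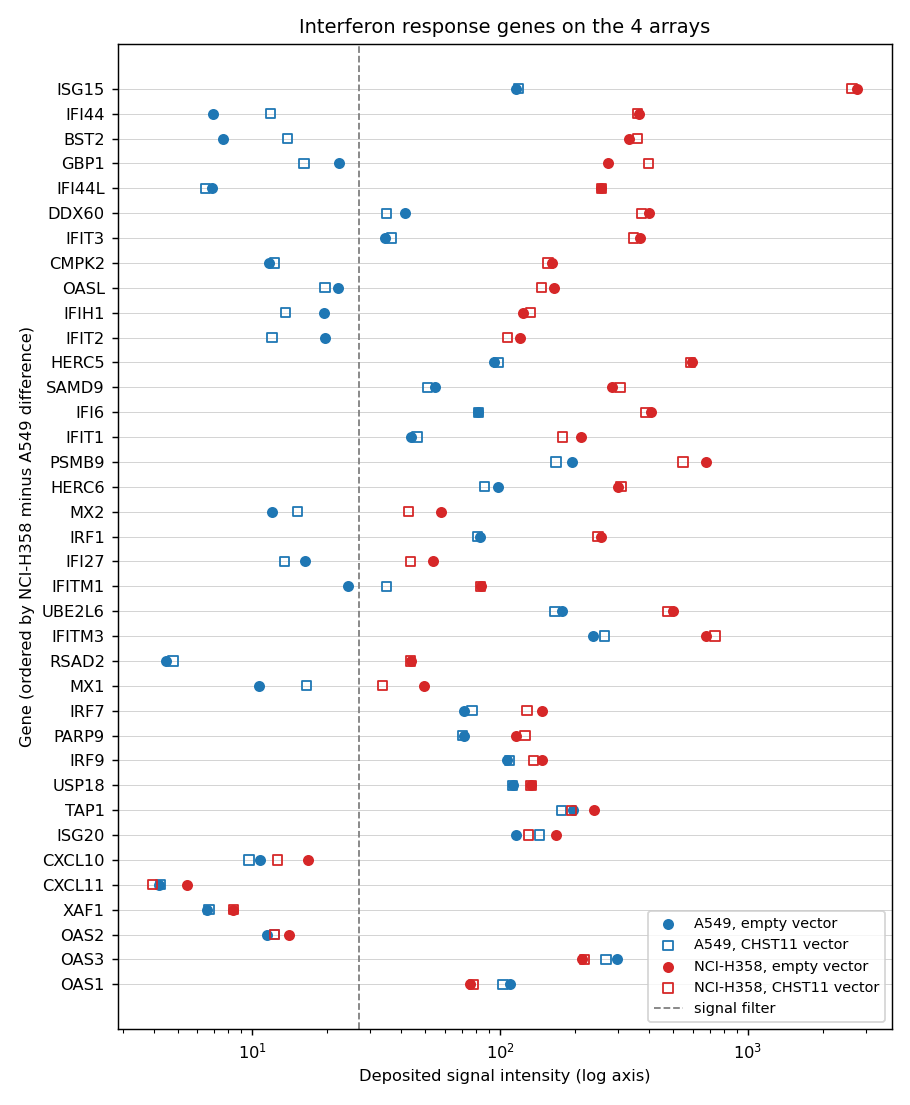
Deposited signal (horizontal log axis) of the probe set representing each of the 37 genes on the 4 arrays, with blue for A549, red for NCI-H358, filled circles for empty vector and open squares for CHST11. The dashed line is the filter at 27, and the widest gaps between red and blue symbols are those of ISG15, IFI44, IFI44L, BST2 and GBP1. Signals of different genes come from different probes and are not comparable with each other.

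The transcription factors of the pathway were moderately higher in NCI-H358. IRF1, a factor induced most strongly by interferon gamma, had signals of 83.0 and 81.1 in A549 and 256 and 248 in NCI-H358, a 3.07-fold difference (log2 1.62, SE 0.087, adjusted p = 0.000222). Its other probe set differed by log2 1.14. IRF7, the amplifier of type I interferon production, had signals of 71.5 and 77.04 in A549 and of 148 and 128 in NCI-H358 (1.86-fold, limma adjusted p = 0.00263). IRF9, the DNA-binding subunit of the interferon-activated complex, had 107 and 109 against 147 and 136 (1.31-fold, limma adjusted p = 0.0194). The arrays of the lines did not overlap for any of these 3 factors, but this also held for USP18, which was not called. The share of all genes without overlap was not counted. The IRF9 call was lost without either A549 array, at adjusted p of 0.0754 without the empty vector array and 0.0684 without the CHST11 array.

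Both RNA sensors and helicases of the list stood higher in NCI-H358. IFIH1, the cytoplasmic sensor of long double-stranded RNA also called MDA5, had signals of 19.6 and 13.6 in A549, under the filter, and of 124 and 133 in NCI-H358, at least 4.75-fold higher (limma adjusted p = 0.000134). DDX60, a helicase linked to antiviral sensing, had 41.5 and 34.9 in A549 and 398 and 371 in NCI-H358, a 10.1-fold difference (log2 3.34, SE 0.0935, limma adjusted p = 4.92e-05). Both genes separated the lines with either vector, but IFIH1 passed the filter through NCI-H358 alone, which fixed its direction.

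The OAS family, enzymes that make 2′-5′ oligoadenylates on sensing double-stranded RNA, was split. OAS1 had signals of 110 and 103 in A549 and of 75.8 and 78.2 in NCI-H358, which was 1.38-fold higher in A549 (limma adjusted p = 0.0112). OAS3 had 297 and 267 in A549 and 215 and 220 in NCI-H358, 1.3-fold higher in A549 (limma adjusted p = 0.0249). These were the 2 members higher in A549, and both differences were small. The second OAS1 probe set gave a larger difference of the same sign, log2 -1.6. The OAS3 call was lost without any of 3 arrays, with adjusted p of 0.0599 without A549 empty vector, 0.102 without NCI-H358 empty vector and 0.0894 without NCI-H358 CHST11. OAS2, whose gene lies beside OAS3 on chromosome 12, was at 11.5, 12.3, 14.0 and 12.3 and not measured in either line.

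OASL, a family member without the enzyme activity that enhances RNA sensing, went the other way from OAS1 and OAS3. Its signals were 22.1 and 19.7 in A549 and 165 and 147 in NCI-H358, at least 5.76-fold higher (limma adjusted p = 5.66e-05), and its other probe set differed by log2 2.54. OASL lies on the same chromosome, with 61 protein-coding genes between it and OAS2.

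The 3 IFIT genes, among them IFIT1, whose product binds viral RNA lacking a host cap and blocks its translation, were all higher in NCI-H358. IFIT1 had signals of 43.6 and 46.3 in A549 and of 213 and 178 in NCI-H358 (4.34-fold, log2 2.12, SE 0.119, limma adjusted p = 0.00025). IFIT3 had 34.4 and 36.5 against 368 and 345 (10.05-fold, limma adjusted p = 5.17e-05), and its other probe set differed by log2 1.97. IFIT2 was under the filter in A549, at 19.7 and 12.03, and had 120 and 107 in NCI-H358, at least 4.2-fold higher (limma adjusted p = 7.58e-05). IFIT2 and IFIT3 are adjacent on chromosome 10, and 1 protein-coding gene lies between IFIT3 and IFIT1.

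Genes of membrane proteins that restrict viral entry and release followed. BST2, tetherin, which holds budding virions at the cell surface, had signals of 7.61 and 13.9 in A549 and of 331 and 357 in NCI-H358, at least 12.7-fold higher (limma adjusted p = 3.02e-05). IFITM3, which blocks fusion of virus in endosomes, had 238 and 264 in A549 and 677 and 737 in NCI-H358 (2.82-fold, limma adjusted p = 0.000276). IFITM1, which acts at the plasma membrane, had 24.4 and 34.9 against 83.6 on both NCI-H358 arrays, at least 2.72-fold higher (limma adjusted p = 0.00121). The arrays did not overlap for any of these genes, though BST2 passed the filter through NCI-H358 alone and overlap was not counted over all genes. The IFITM1 call was lost without either NCI-H358 array, at adjusted p of 0.0659 and 0.0662. IFITM genes are near-identical in sequence and the 2 probe sets are of types that can bind several transcripts, so the split between members of this family is uncertain. IFITM2, of the same family but not listed and named after its values were seen, was slightly higher in A549, at 551 and 560 against 465 and 448 (limma adjusted p = 0.0444).

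Of the 6 genes for GTPases, viperin and nucleotide enzymes, 5 were under the filter in A549, and ISG20 was measured in both lines. GBP1, a guanylate-binding protein strongly induced by interferon gamma, had signals of 22.3 and 16.2 in A549 and of 272 and 396 in NCI-H358, at least 12.2-fold higher (limma adjusted p = 0.000311), and its 3 measured probe sets gave log2 differences from 3.04 to 4.11. CMPK2, a mitochondrial nucleotide kinase, had 11.7 and 12.3 against 163 and 156 (at least 5.9-fold, limma adjusted p = 4.39e-05). Its neighbour on chromosome 2, RSAD2 or viperin, which makes a chain-terminating nucleotide, had 4.51 and 4.79 against 43.8 and 43.7 (at least 1.62-fold, limma adjusted p = 0.000304).

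MX1 and MX2, dynamin-like GTPases that trap viral nucleocapsids, were measured in NCI-H358 only and weakly there. MX1 had 10.7 and 16.5 in A549 and 49.3 and 33.5 in NCI-H358, at least 1.5-fold higher (limma adjusted p = 0.00244). MX2 had 12.1 and 15.2 against 57.9 and 42.8, at least 1.84-fold higher (limma adjusted p = 0.000734). The MX1 call was lost without either A549 array, with adjusted p of 0.0895 without empty vector and 0.0873 without CHST11. ISG20, an RNA exonuclease, was not called, with overlapping arrays at 116 and 144 in A549 and 168 and 130 in NCI-H358 (log2 0.20, limma adjusted p = 0.391).

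ISG15 had the largest fitted difference of the list with signals floored at 16.1, but with the floor at the 25th percentile IFI44 (log2 5.31), IFI44L (5.24) and BST2 (5.06) exceeded it. This ubiquitin-like protein, which is also secreted, had signals of 116 and 118 in A549 and of 2759 and 2629 in NCI-H358, a 23.0-fold difference (log2 4.53, SE 0.0905, limma adjusted p = 2.83e-05). The difference was log2 4.58 between the empty vector arrays and 4.47 between the CHST11 arrays. UBE2L6 and HERC5, enzymes that attach ISG15, were higher as well. UBE2L6, the conjugating enzyme, had 178 and 167 against 496 and 474 (2.82-fold, limma adjusted p = 0.000276). HERC5, the ligase, had 94.3 and 98.4 against 594 and 585 (6.12-fold, limma adjusted p = 7.45e-05). UBA7, another enzyme of this attachment, was not analysed. HERC6, the gene beside HERC5 on chromosome 4, had 97.7 and 86.3 against 299.8 and 308 (3.31-fold, limma adjusted p = 0.000276).

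USP18, the protease that removes ISG15 and that also dampens the type I receptor, stood apart from the others of this group. Its signals were 113 and 112 in A549 and 133 and 133 in NCI-H358 (log2 0.24, SE 0.0871, limma adjusted p = 0.0661), so it was not called, although the arrays did not overlap. It passed the threshold in 5 of the 14 alternative settings, and the adjusted p ran from 0.0299 to 0.135 over all of them.

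Several genes of small or cytoplasmic induced proteins had some of the widest gaps between the lines. IFI44 had signals of 6.93 and 11.8 in A549 and of 363 and 357.7 in NCI-H358, at least 13.3-fold higher (limma adjusted p = 2.82e-05). Its other probe set was under the filter on all arrays, and with the median of both the difference was log2 2.33. Its neighbour IFI44L, on chromosome 1, had 6.87 and 6.46 against 254 and 257, at least 9.47-fold higher (limma adjusted p = 3.09e-05). IFI6, a small protein of mitochondria and the endoplasmic reticulum, had 81.5 and 81.9 against 408 and 386 (4.85-fold, limma adjusted p = 0.000106). SAMD9, a growth suppressor that restricts poxviruses, had 54.8 and 50.9 against 282 and 305 (5.56-fold, limma adjusted p = 0.000113). PARP9, a partner of the ubiquitin ligase DTX3L, had 71.8 and 70.7 against 116 and 126 (1.69-fold, limma adjusted p = 0.00235).

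IFI27, a mitochondrial protein often used to report an interferon response in blood, was under the filter in A549, at 16.3 and 13.5, and reached 53.8 and 43.6 in NCI-H358, at least 1.79-fold higher (limma adjusted p = 0.000463). XAF1, an antagonist of the apoptosis inhibitor XIAP, had signals of 6.6, 6.7, 8.4 and 8.43, and all 3 of its probe sets were under the filter on every array. XAF1 thus had no measured signal in NCI-H358. The other 6 genes in this group of small or cytoplasmic proteins were called higher there.

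The chemokines CXCL10 and CXCL11, which attract activated T cells, were below the filter in both lines. CXCL10 had signals of 10.7, 9.71, 16.8 and 12.6 on the empty vector and CHST11 arrays of A549 and then of NCI-H358, and CXCL11 of 4.2, 4.28, 5.47 and 3.97. Of the antigen processing members, PSMB9, an immunoproteasome subunit, had 194 and 168 in A549 and 676 and 547 in NCI-H358 (3.36-fold, limma adjusted p = 0.000198). TAP1, a subunit of the peptide transporter whose gene lies next to PSMB9 on chromosome 6, had 197 and 176 against 239 and 194, with overlapping arrays (log2 0.21, limma adjusted p = 0.109).

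**Figure D3:**
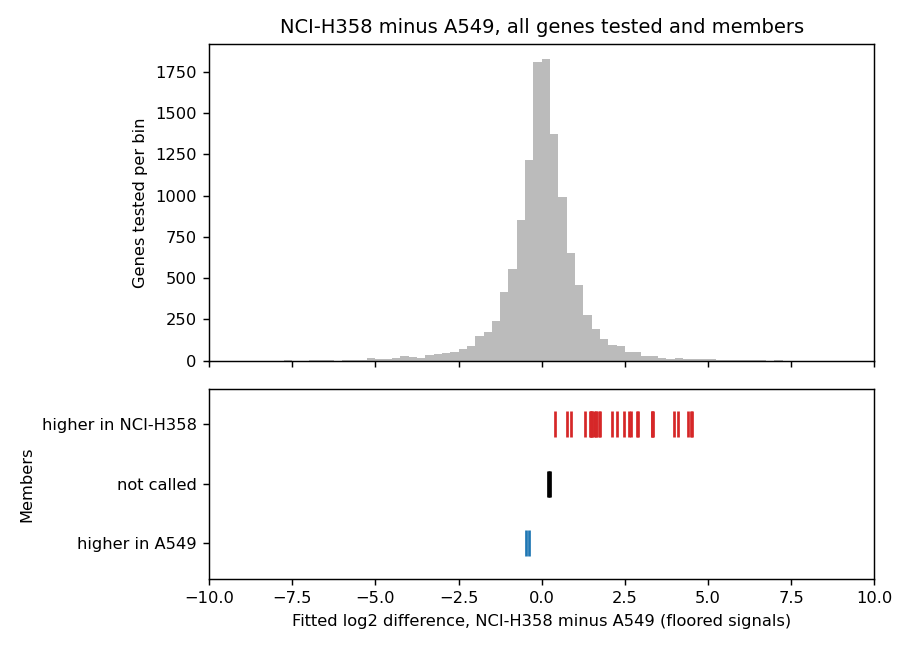
Fitted log2 difference between the lines, NCI-H358 minus A549, for all 12271 genes tested (upper panel, genes per bin) and for the 33 members tested (lower panel, 1 tick each, by call). The members called higher in NCI-H358 spread from 0.39 to 4.53, while all genes have a median of 0.03.

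The rest of the pathway was described by 7 lists written from general knowledge, of which 109 of 120 genes could be analysed and 86 were tested. Of these lists 45 genes were higher in NCI-H358, 19 in A549 and 22 were not called, beside 33.9% and 30.6% of all genes tested. Of the 86, 11 passed the filter through NCI-H358 alone and 2 through A549 alone. The lists differed in their balance, and the signalling lists did not share 1 direction. At 2-fold, sensors and adaptors had 5 genes higher in NCI-H358 and 0 in A549, and negative regulators 2 and 0. Receptors and kinases had 0 and 1, and transcription factors 0 and 0.

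The ligand genes were all under the filter. All 9 analysed genes, IFNB1, IFNA1, IFNA2, IFNE, IFNK, IFNW1, IFNL1, IFNL2 and IFNG, lay between 3.33 and 11.2 on all 4 arrays, under the filter. The filter is not a detection call, so this gives no level for them. Of 9 receptor and kinase genes, 5 were higher in A549 and 1 in NCI-H358. IL10RB, a chain shared by the type III and interleukin-10 receptors, had 146 and 149 in A549 and 43.3 and 35.1 in NCI-H358 (log2 -1.92, limma adjusted p = 0.000307). IFNAR2 had 187 and 193 against 95.5 and 99.1 (log2 -0.97, limma adjusted p = 0.000935), and all 3 of its probe sets were higher in A549. IFNLR1, the specific chain of the type III receptor, was the gene higher in NCI-H358, at 41.7 and 43.4 against 75.2 and 94.9 (log2 0.99, limma adjusted p = 0.00169). JAK2 was not called, at log2 0.31 (limma adjusted p = 0.0657).

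Of 7 other transcription factors analysed, 3 were higher in A549 and 2 in NCI-H358. STAT3 had log2 -0.998 and IRF5 -0.97, while IRF2 had 0.92 and BATF2 0.90. IRF5 passed the filter through A549 alone and BATF2 through NCI-H358 alone, which fixed the direction of both. The nucleic acid sensors included some large differences, with 6 genes higher in NCI-H358 and 2 in A549 of 15 analysed. Of the 12 tested, 4 passed the filter through NCI-H358 alone, AIM2 among them, which fixed their direction. AIM2, which forms an inflammasome on cytosolic DNA, had 7.2 and 8.67 in A549 and 170 and 172 in NCI-H358 (at least 6.34-fold, limma adjusted p = 4.03e-05). IFI16, a related DNA sensor, had 56.7 and 57.2 against 542 and 638 (10.3-fold, limma adjusted p = 5.66e-05). The adaptors MAVS (log2 -0.43) and MYD88 (log2 -0.30) were higher in A549.

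Negative regulators were even, with 2 genes higher in each line of 9 analysed. PTPN2, a phosphatase of JAK and STAT proteins, had log2 1.16 and SOCS3, an inhibitor of JAK kinases, 1.09, while TRIM21 had -0.87 and the phosphatase PTPN6 -0.68.

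Of 47 interferon-stimulated genes outside the members, 21 were higher in NCI-H358, 7 were higher in A549, 11 were not called and 8 were under the filter. Of the 39 tested, 4 passed through NCI-H358 alone and 1 through A549 alone. CD274, the immune checkpoint ligand PD-L1, had signals of 10.98 and 9.84 in A549 and of 285 and 319 in NCI-H358 (at least 11.2-fold, limma adjusted p = 3.09e-05). Its floored log2 difference was 4.22 by this probe set and 1.27 by its other measured probe set. SLFN5 had 37.4 and 38.2 against 278 and 285 (7.46-fold, limma adjusted p = 5.66e-05). Against this direction, SLFN11, a Schlafen protein that binds stalled replication forks, had 78.6 and 80.7 in A549 and 9.12 and 7.39 in NCI-H358 (at least 2.95-fold higher in A549, limma adjusted p = 9.86e-05). RNF213, a large ubiquitin ligase, was not called at log2 -0.51 (limma adjusted p = 0.08). In the same window, 17 of 36 promoters of this list (47.2%) held the response element core.

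All 13 antigen processing partners analysed were higher in NCI-H358, as PSMB9 was. Of these, 2 passed the filter through NCI-H358 alone, NLRC5 among them, which fixed their direction. HLA-B had 402 and 398 in A549 and 3485 and 2970 in NCI-H358 (8.04-fold, limma adjusted p = 7.17e-05), and NLRC5, the activator of class I genes, 13.2 and 14.6 against 99.0 and 96.3 (at least 3.62-fold, limma adjusted p = 7.29e-05). The smallest differences were those of HLA-E (log2 0.41) and PSMB10 (log2 0.31). Class I genes are alike in sequence, so how their signal divides between them is uncertain.

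**Figure D4:**
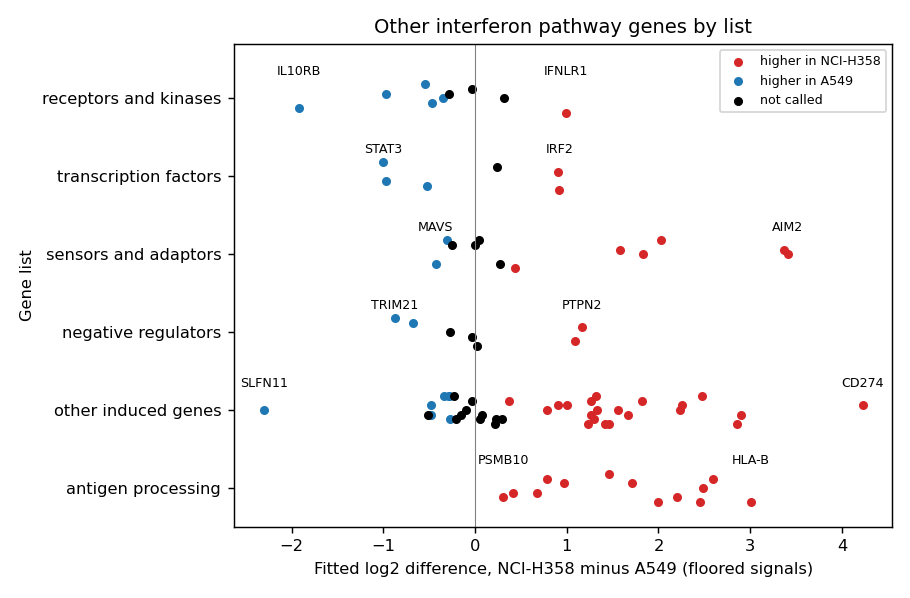
Fitted log2 difference, NCI-H358 minus A549 (horizontal axis), of the genes tested in 6 lists of the interferon pathway, 1 point per gene with a small vertical offset, coloured by the limma call. The lowest and highest gene of each list are named, and all 13 antigen processing partners lie right of 0 while 5 receptors and kinases are called higher in A549.

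Markers of other cell types were examined beside these differences. The summed signal of the 5 analysed leukocyte markers was 77.3 and 90.6 in A549 and 133 and 129 in NCI-H358, with 1 gene called higher in each line, that of NCI-H358 being CORO1A (13.3 and 14.6 against 83.5 and 83.6). PTPRC, the leukocyte common antigen, lay between 4.2 and 5.69 on all arrays. The summed signals of plasmacytoid dendritic cell markers were 153, 146, 169 and 186, with 3 of 4 genes under the filter everywhere and only TCF4 measured. Endothelial sums ran from 55.6 to 58.6 and fibroblast sums from 196 to 219, with 1 gene measured in each. Their part in the differences above was not tested.

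The second comparison asked what the CHST11 vector changed, and no measured interferon response gene differed 1.5-fold in either line. With 1 array in each group there is no replicate within a line, so ratios are given without a p-value. As a gauge of scatter, the SD of log2 vector ratios among probe sets of 1 gene was 0.158 for A549 and 0.173 for NCI-H358. This is scatter within arrays and leaves out the spread between cultures, and the SD of the ratio over all genes was 0.18 and 0.195. Of the members, 0 of 21 measured in A549 and 0 of 33 measured in NCI-H358 differed at least 1.5-fold, where 0.489% of all genes measured in A549 were that much higher and 0.716% lower, and 0.895% and 0.272% in NCI-H358. At 2-fold these shares of all genes were 0.0349% and 0.0786% in A549 and 0.0527% and 0.00% in NCI-H358. With shares of all genes this small, 0 of 21 and 0 of 33 say little about the members.

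In A549 the members were evenly spread around no change, with 11 of 21 log2 ratios below 0, against 45.3% of all genes measured there, and a median of -0.01 against 0.01. They ran from -0.25 for DDX60 to 0.52 for IFITM1, whose signals of 24.4 and 34.9 lie beside the filter. Their median changed sign with the setting, from -0.05 with a filter at the 75th percentile to 0.02 with median centring. More than 1 SD of probe set scatter below 0 were 4 of 21 members, against 12.7% of all genes, and above it 2, against 15.1%. Those below were DDX60, PSMB9 (-0.21), HERC6 (-0.18) and TAP1 (-0.16), and those above IFITM1 and ISG20 (0.32).

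In NCI-H358, 22 of 33 members had a ratio below 0, against 49.3% of all genes measured there, with a median of -0.06 against 0.00. The lowest was MX1, with signals of 49.3 and 33.5, empty vector first (log2 -0.56), followed by its neighbour MX2 at 57.9 and 42.8 (-0.44). Then came ISG20 (-0.37), PSMB9 (-0.31), IFI27 (-0.30), TAP1 (-0.30), IFIT1 (-0.26) and IRF7 (-0.20). These 8 of 33 lay more than 1 SD of probe set scatter below 0, where 12.7% of all genes did, and 1 lay above it, where 17.6% did. Of the 5 genes with the widest fitted gaps between the lines, ISG15 had -0.07, IFI44 -0.02, IFI44L 0.01 and BST2 0.11. The other of the 5, GBP1, had the highest ratio of all members, 0.54, from signals of 272 and 396, but its 3 measured probe sets ran from -0.01 to 0.54. The median of the members in NCI-H358 stayed below 0 under each scaling and probe set setting tried, from -0.09 to -0.02.

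PSMB9 and TAP1, which lie side by side, were lower with CHST11 in both lines. PSMB9 had signals of 194 and 168 in A549 and of 676 and 547 in NCI-H358, and TAP1 of 197 and 176 and of 239 and 194. Of the 21 members measured in both lines, 5 had a ratio below 0 in both, 1 above 0 in both, and 15 had opposite signs, against 21.5%, 26.2% and 52.3% of all genes measured in both. ISG20 was the 1 member with opposite signs and both ratios more than 1 SD of probe set scatter from 0, as were 5.84% of all such genes. The 5 below 0 in both were DDX60, UBE2L6, IRF1, PSMB9 and TAP1.

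Fitted over both lines at an adjusted p of 0.05, limma called 0 of the 33 members and 0 (0.00%) of the 12271 genes tested. There were 374 genes at an unadjusted p under 0.05 and 330 with a trend on mean signal, where 0 were also called. The member among these 374 was PSMB9, at a fitted log2 difference of -0.26 (SE 0.09, limma adjusted p = 1). CHST11, the gene carried by the vector, was itself not called, at a fitted log2 difference of 1.84 (SE 0.218) by its representing probe set. Since the fit missed the gene put in, its 0 calls cannot show that CHST11 left the members unchanged. The fit takes the difference between the lines as its error, and a gene that responds in 1 line gets a large error in it.

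**Figure D5:**
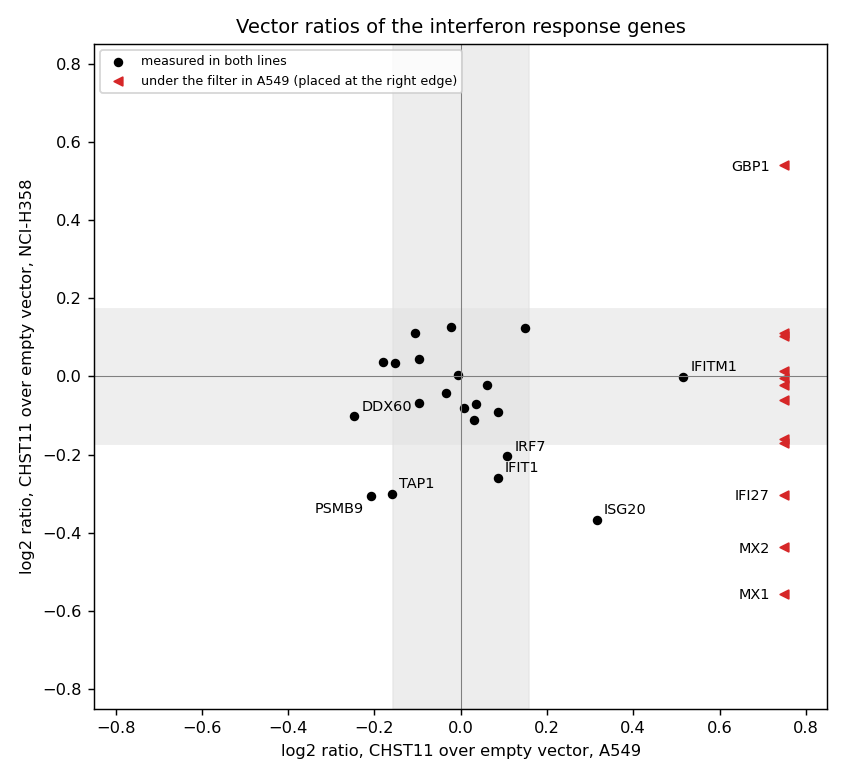
Log2 ratio of CHST11 over empty vector in A549 (horizontal) and NCI-H358 (vertical) for the 21 members measured in both lines (black points), with the 12 measured in NCI-H358 alone as red triangles at the right edge. Grey bands span 1 SD of probe set scatter in each line, 0.158 and 0.173, and MX1, MX2 and ISG20 lie lowest in NCI-H358 while IFITM1 lies farthest right.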

How the data were processed

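The deposited values are signal intensities on a linear scale, from 2.46 to 15499 over 54675 probe sets. Per the submitters' processing notes they were made with MAS5, with no version or scaling target named there. The close percentiles of the arrays leave a further normalization step possible, which could compress dim genes. No detection calls were used, so the filter at 27 (60th percentile over the 4 arrays, reached on 1 or more) and the floor at 16.1 (50th percentile) stand in for background. The number of arrays limits the precision. Besides control probe sets, 41097 had a single symbol in the annotation, 1801 had several and 11721 had none. Groups came from the labels, with 1 array each.

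The fit of floored log2 signals used limma 3.58.1 under R 4.3.3 (terms for cell line and vector, 1 residual degree of freedom, eBayes, Benjamini-Hochberg adjustment over all genes tested), and the fit was tested on simulated data. Vector ratios within a line were counted by size. The 7 pathway lists and the cell type markers are named with their counts. Named genes were all members, the 2 highest and 2 lowest tested genes of each list by fitted difference (all or some printed), markers and label checks; others are said to be chosen later. The members and lists were chosen with earlier results of these data known. Alternatives were 3 normalizations, 2 floors, 2 filters, the median of probe sets, eBayes with a trend, the cell line term alone and each array left out. Python 3.11.15 and matplotlib 3.10.9 made tables and plots.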

Additional observations from a re-analysis of the deposited data

Results flagged for a closer look

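ISG20, an RNA exonuclease, had opposite vector ratios in the 2 cell lines, each more than 1 SD of probe set scatter from 0 in its line by the representing probe set. Its log2 ratio of CHST11 over empty vector was 0.32 in A549 (signals 116 and 144) and -0.37 in NCI-H358 (signals 168 and 130), and its other probe set gave 0.15, within the A549 scatter of 0.158, and -0.21. The difference was not tested, since each line has 1 array per vector. Of 21 members measured in both lines 1 met this description, as did 5.84% of all such genes, and the scatter leaves out the spread between cultures.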

How the results depend on the processing

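The direction of every tested member was the same in each of the 14 alternative fits that tested it. With no filter, where all 19775 genes were tested, limma called 17 members higher in NCI-H358 and 0 in A549, and 968 and 937 of all genes. Adding a 2-fold size to the adjusted p left 0 members higher in A549 and 1522 and 1467 of all genes. Leaving out each array in turn, with the cell line term alone, gave 26 to 28 members higher in NCI-H358 and 1 to 2 in A549, and 2783 to 3397 and 2562 to 3073 of all genes; the lone array of a line is then assumed to vary like the other line. The member calls lost without 1 array were those of IFITM1, IRF9, MX1 and OAS3, which were among the 14 lost with no filter. The vector comparisons kept counts of 0 in each setting run. No paired analysis was possible because the labels give no replicate numbers to add as a block; the fit itself compares lines within vector and vectors within line. No detection calls were used, so genes near 27, MX1, MX2 and RSAD2 among them, are limited by signal over background.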
